A study of Mus musculus with 14 samples.

Results

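Gene expression in the ischemic (MCAO) hemisphere was compared between cortistatin-deficient (Cort-/-) and wild-type (Cort+/+) mice 48 h after stroke. The samples were chosen by the genotype and the hemisphere in their labels, which gave 8 of the 14 samples, 5 Cort-/- (replicates 1 to 5) and 3 Cort+/+ (replicates 2, 3 and 4). All animals were males of 12 weeks on the C57BL/6J background, and all had undergone transient middle cerebral artery occlusion (MCAO) for 20 min. The operation, sex and age were thus shared by both genotypes, and the groups were defined by their Cort genotype. Genes close to Cort on chromosome 4 also differed in expression between them, as described below. A difference between the groups therefore cannot be assigned to the loss of Cort alone, and its cause was not tested. The 6 contralateral (CL) hemispheres, 3 of each genotype, came from operated animals at the same time point and were used to see whether a genotype difference was also present outside the lesioned side. RNA was taken from whole hemispheres, so lesion, border and spared tissue were mixed, and fewer cells of a type and less RNA per cell cannot be told apart. Expression was deposited in RPKM (reads scaled by gene length and by the size of the library). The library size in these values was not equal to the total of reads on genes. It was 43521577 against 41808887 reads in Cort-/- MCAO replicate 1, and 30956653 against 31208143 reads in Cort+/+ MCAO replicate 4. Reads on genes ranged from 25991115 to 43034554 in the Cort-/- and from 31208143 to 40176342 in the Cort+/+ MCAO libraries, with the lowest total in Cort-/- replicate 3. The replicates are described in the methods as separate biological ones. Cort+/+ MCAO replicates 1 and 5 were not analysed here. The methods say that, where replicates varied much, those that did not group with the others were left out of comparisons, and whether this bears on the Cort+/+ MCAO group is not given in the sources used here. If it does, the spread, the p-values and the lack of overlap reported here rest on a selected group.

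Cortistatin is a neuropeptide made mainly by inhibitory interneurons of the cortex and hippocampus and by some immune cells. It is a close relative of somatostatin, acts through the somatostatin receptors and the ghrelin receptor, and is known to dampen neuronal firing and to restrain inflammatory cells. After an arterial occlusion, neurons of the supplied territory (striatum and overlying cortex) die, microglia and astrocytes become reactive, blood leukocytes enter, and within days cells proliferate and lay down matrix around the lesion.

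The kinship of the 2 peptides is visible where it matters for the receptors, at the end of their coding sequences, which encodes the mature peptide. The last 48 coding bases before the stop codon are shown 5′ to 3′ from the GRCm39 genome with the transcripts of GENCODE M39, with bases shared by the 2 genes in capitals. That of Cort lies in exon 2 at chr4:149209724-149209771 on the minus strand, and that of Sst in exon 2 at chr16:23708482-23708529, also on the minus strand.
Cort: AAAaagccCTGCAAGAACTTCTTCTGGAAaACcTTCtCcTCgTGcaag
Sst: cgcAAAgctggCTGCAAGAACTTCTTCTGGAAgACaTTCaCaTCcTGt
Aligned without gaps, 34 of 45 compared bases (75.6%) were identical, with a longest shared run of 21 bases. Only the first of these genes was lost in the knockout, as the expression values show.

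Cort, listed by its symbol (ENSMUSG00000028971, chr4:149209491-149211266 in GRCm39), was nearly absent from the Cort-/- MCAO hemispheres. The 5 Cort-/- libraries held 0, 4, 1, 0 and 1 Cort reads, and the Cort+/+ libraries 108, 93 and 81. In RPKM the highest Cort-/- library reached 0.136 and the lowest Cort+/+ library 3.36, so the genotypes of all 8 libraries matched their labels. Relative to library size, the Cort-/- libraries together held 1.18% of the Cort reads of the Cort+/+ libraries (exact 95% interval 0.431% to 2.61%, counting error only). Expression fell by 4.84 ± 0.32 (SE) on the log2(RPKM + 0.1) scale (limma, adjusted p = 2.32e-05).

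Of the 17476 genes kept for testing (average over all libraries of 0.5 RPKM or more), 4 passed an adjusted p of 0.05 in limma, which is 0.0229%, with 2 higher and 2 lower in Cort-/- mice. Besides Cort these were Gm49980, Gm43305 and Fbxo44. Gm49980 (ENSMUSG00000117465), a long non-coding RNA gene at chr18:30400111-30405186, had 10.3, 12.1, 10.03, 11.6 and 9.78 RPKM in the Cort-/- libraries and 2.76, 2.28 and 4.15 RPKM in the Cort+/+ libraries. It rose 3.51-fold between the group means, which did not overlap (log2 difference 1.82 ± 0.15 SE, adjusted p = 2.59e-04). Gm43305 (ENSMUSG00000105703), a long non-coding RNA gene at chr14:54529898-54534949, rose from 1.94 ± 0.562 RPKM (SD, n = 3) to 5.79 ± 0.824 RPKM (SD, n = 5). Its groups also did not overlap, with 4.38 to 6.54 RPKM against 1.32 to 2.42 RPKM (log2 difference 1.56 ± 0.22 SE, limma adjusted p = 0.0471).

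Fbxo44 encodes an F-box protein, the substrate-recognising part of an SCF-type ubiquitin ligase. It lies at chr4:148236949-148245002, 0.973 Mb from Cort on the same chromosome. Its Cort-/- libraries were tightly grouped at 26.8, 26.0, 26.3, 26.0 and 26.3 RPKM, and the Cort+/+ libraries held 38.9, 33.4 and 38.9 RPKM. Every Cort-/- value was below every Cort+/+ value, and expression fell by 0.49 ± 0.05 (SE) on the log2 scale (limma, adjusted p = 0.00236). Fbxo44 overlaps Fbxo2 on the opposite strand and Gm49980 overlaps another non-coding gene on the opposite strand, and the sources do not say whether the counting used strand, so reads of overlapping genes may be mixed.

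The calls for Gm43305 and Fbxo44 depended on the fit. With only the MCAO libraries in the model, 2 genes passed, Cort and Gm49980, and Fbxo44 had an adjusted p of 0.0529. Gm43305 was above the threshold in 14 of 26 alternatives, among them every fit with 1 MCAO library left out except that without Cort-/- replicate 2 and that without Cort+/+ replicate 3.

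**Figure D1:**
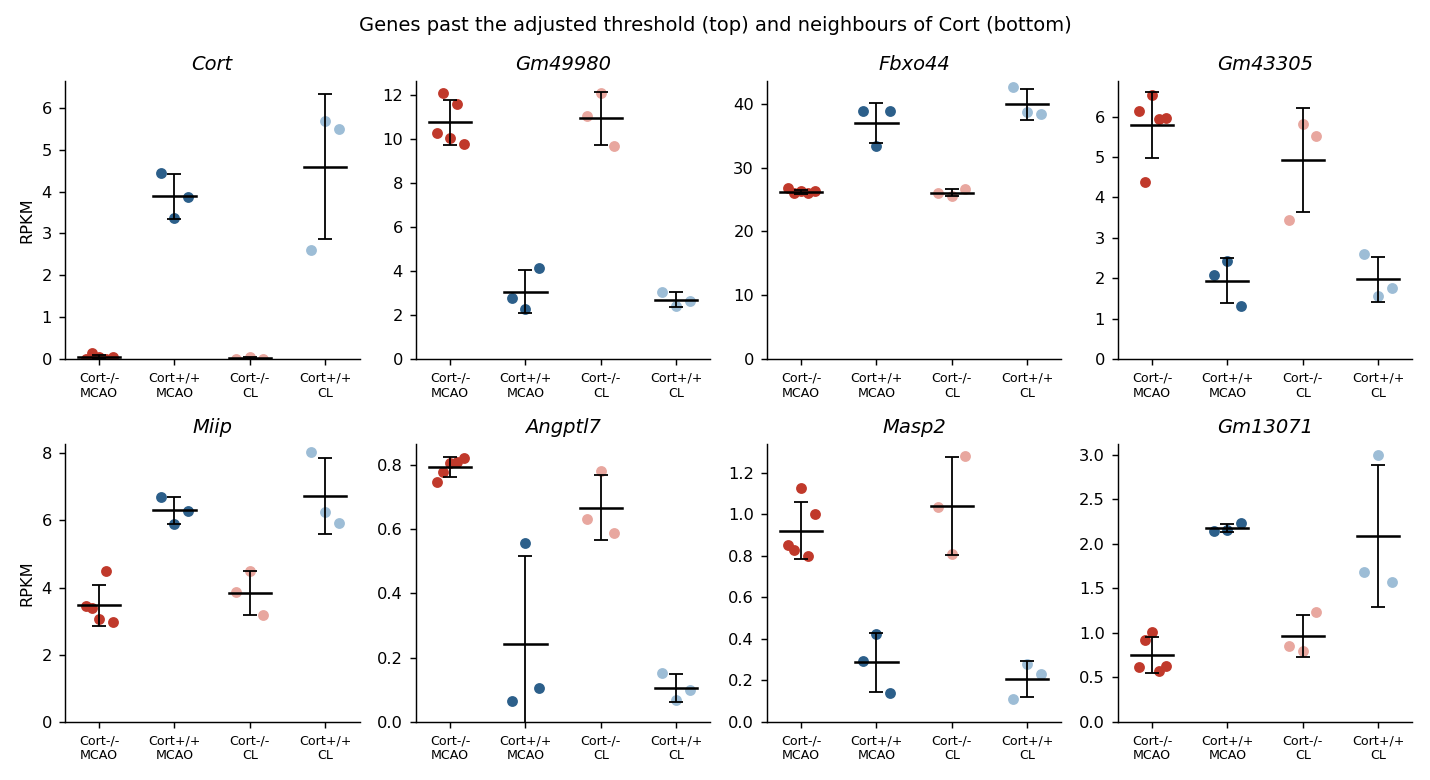
Expression (RPKM, linear axes from 0) of the 4 genes past the adjusted threshold (top) and of 4 neighbours of Cort that were not called (bottom) in each library; points are libraries, horizontal lines the group mean and bars the SD (5, 3, 3 and 3 libraries). In each panel the 5 Cort-/- MCAO libraries do not overlap the 3 Cort+/+ MCAO libraries, and the CL libraries show the genotypes in the same order.

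Most of these genes also differed in the contralateral hemisphere. The CL values come from other libraries, but both contrasts were fitted in one model, so the CL libraries also contribute to the estimate of the spread behind the MCAO p-values. There 4 genes passed the adjusted threshold (0.0229% of those tested), and 3 of them (Cort, Gm49980 and Fbxo44) were those called on the ischemic side. Gm49980 averaged 10.9 ± 1.19 RPKM in the Cort-/- and 2.70 ± 0.337 RPKM in the Cort+/+ CL hemispheres (SD, n = 3 each). Fbxo44 averaged 26.1 ± 0.577 and 39.96 ± 2.40 RPKM in the same groups. Gm43305 had a log2 difference of 1.27 in CL hemispheres, with an adjusted p of 0.374, and the difference between its MCAO and CL effects was 0.29 (limma, unadjusted p = 0.409). The fourth gene called in CL was Clcn6, which encodes a chloride/proton exchanger of late endosomes, with a log2 difference of 0.37 in CL (adjusted p = 0.0429) and 0.24 in MCAO hemispheres (adjusted p = 0.355).

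None of the 17476 genes passed the adjusted threshold for a genotype effect that differed between the hemispheres. At an unadjusted p under 0.05 there were 273 (1.56%), which became 411 and 462 without Cort+/+ CL replicates 1 and 2, and a count of 0 was also given by limma voom on the recovered reads. A count of 0 calls does not show that the hemispheres responded alike.

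Without adjustment, 192 genes (1.1%) had a p under 0.05 and were higher in Cort-/- MCAO hemispheres, and 212 (1.21%) were lower. The genotypes did not overlap for 154 genes higher (0.881%) and 246 lower (1.41%) in Cort-/- mice. Most differences were small. The median log2 difference over all genes was −0.01, the 5th and 95th percentiles were −0.24 and 0.27, and 118 genes were past 1 in either direction. The median SE was 0.094. The number of genes with an unadjusted p under 0.05 was 404, and it became 884 without Cort+/+ replicate 3, 716 without Cort-/- replicate 3 and 254 without Cort+/+ replicate 4.

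Genes that lie near Cort were frequent among the smallest p-values, and were a small part of all genes with an unadjusted p under 0.05. Of the 20 genes with the lowest p, 9 lay within 10 Mb of Cort on chromosome 4, Cort included. Besides Cort, 207 genes of this region were tested, and 23 of them (11.1%) had an unadjusted p under 0.05, against 378 (2.20%) of the genes elsewhere. Of the 23 genes, 13 were higher and 10 lower in Cort-/- mice. The genotypes did not overlap for 18 genes of the region (8.70%), Cort left out. Over all tested genes it was 0.881% with Cort-/- higher and 1.41% with Cort-/- lower. In the CL hemispheres 23 genes of the region (11.1%) had a p under 0.05, against 2.82% elsewhere, and 14 genes had one in both hemispheres with the same sign. Across the 26 alternatives, the share near Cort ranged from 8.70% (without Cort+/+ replicate 4) to 16.4% (rescaled to TPM) and stayed above the share elsewhere in each.

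Within the region the differences gathered close to the gene. Inside 1.5 Mb, a window chosen after the values were seen, 16 of 51 genes (31.4%) had a p under 0.05, and of those 16 genes 15 had the same sign in CL hemispheres. In the rest of the region it was 7 of 156 genes (4.49%). The differences went both ways among adjacent genes, with 13 higher and 10 lower over the whole region.

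Among the genes of lowest p, which were chosen after their values were seen, Miip encodes a protein that inhibits cell migration and mitosis. It had 3.46, 3.38, 3.05, 4.504 and 2.96 RPKM in Cort-/- and 6.71, 5.91 and 6.29 RPKM in Cort+/+ MCAO hemispheres (log2 difference −0.86 ± 0.14 SE, limma adjusted p = 0.107). Its genotypes did not overlap.

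Masp2, a serine protease that starts the lectin pathway of complement, was expressed at a low level in all libraries. It had 0.854, 0.826, 1.12, 0.801 and 1.00 RPKM in Cort-/- and 0.293, 0.425 and 0.140 RPKM in Cort+/+ hemispheres (log2 difference 1.47 ± 0.26 SE, limma adjusted p = 0.17). Angptl7, a secreted angiopoietin-like protein, held 0.746 to 0.822 RPKM in Cort-/- libraries and 0.0645, 0.556 and 0.105 RPKM in Cort+/+ replicates 2, 3 and 4. Its adjusted p was 0.461 and became 7.21e-04 without Cort+/+ replicate 3. Masp2 overlaps Tardbp, and Angptl7 overlaps Mtor, on the opposite strand.

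Gm13071, a processed pseudogene 0.376 Mb from Cort, was lower in Cort-/- mice (0.573 to 1.01 RPKM against 2.14 to 2.23 RPKM; limma adjusted p = 0.0698), on 9 to 15 against 26 to 33 reads per library. It lies inside Lzic on the same strand, and a pseudogene shares sequence with its parent, so its count is uncertain. The same holds for the zinc finger gene Zfp933 and for Rps19-ps3, which are members of multicopy families.

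**Figure D2:**
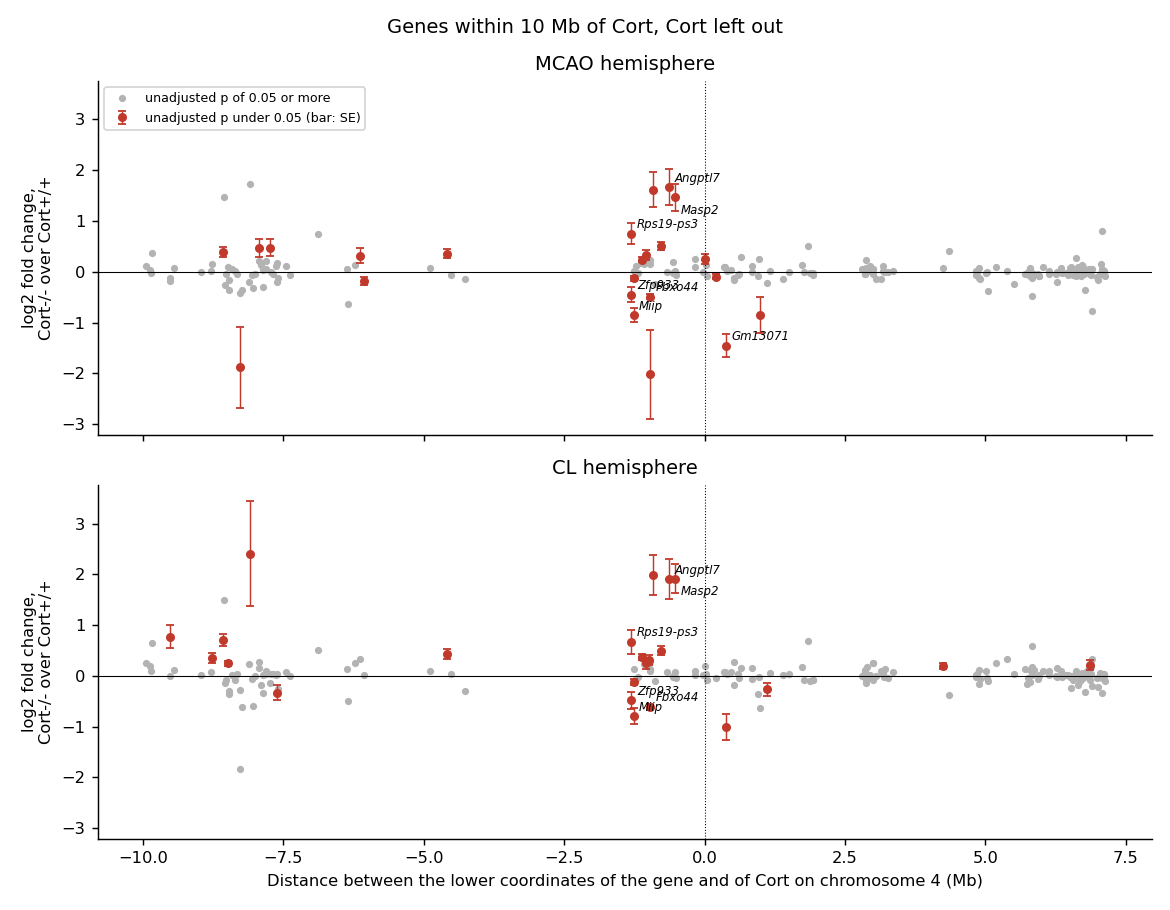
Genotype differences of the 207 tested genes within 10 Mb of Cort, as log2 fold change of RPKM + 0.1 (Cort-/- over Cort+/+) against the distance from Cort in Mb, in MCAO (top) and CL (bottom) hemispheres; red points have an unadjusted p under 0.05 and carry their SE, and some of them are labelled. In both hemispheres most of the red points lie within 1.5 Mb of Cort and on either side of 0.

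Away from the neighbourhood of Cort, the largest differences among genes that did not overlap belonged mainly to short or poorly described RNAs. The lowest were mt-Td, a mitochondrial transfer RNA, the small RNA genes Gm56171, Mir151, Gm25970, Gm23711 and Mirlet7f-1, and the immunoglobulin joining segment Igkj2, with log2 differences of −2.95 to −1.58 and unadjusted p of 0.00691 to 0.0328. For mt-Td the Cort-/- libraries held 7 reads in all, which puts expression at least 2.48-fold lower (against a floor of 3 reads in each Cort-/- library). Poly(A)-selected libraries capture such RNAs poorly.

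The highest, besides the called genes, included ENSMUSG00000141158, a non-coding RNA that overlaps Camk2b on the opposite strand. It had 9.34, 7.07, 4.91, 6.48 and 9.01 RPKM in Cort-/- and 2.998, 1.78 and 0.971 RPKM in Cort+/+ MCAO hemispheres (log2 difference 1.98 ± 0.31 SE, limma adjusted p = 0.0698). It passed the threshold with voom on recovered reads (adjusted p = 0.046). Mir147, Mir718, Snord65 and ENSMUSG00000141662 had log2 differences of 0.76 to 1.49 that did not pass the adjusted threshold.

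The other members of the cortistatin system showed no difference that passed the test. Somatostatin (Sst), the related peptide of cortical interneurons, had 151, 151, 175, 136 and 153 RPKM in Cort-/- and 167, 142 and 177 RPKM in Cort+/+ MCAO hemispheres (log2 difference −0.08 ± 0.10 SE, limma unadjusted p = 0.449). The values of the genotypes overlapped. The receptors were of similar level in both genotypes. Sstr1 averaged 6.49 ± 0.905 RPKM in Cort-/- (SD, n = 5) and 6.70 ± 0.252 RPKM in Cort+/+ hemispheres (SD, n = 3), Sstr2 7.78 ± 0.882 and 7.50 ± 0.581, Sstr3 5.47 ± 0.329 and 5.70 ± 0.222, and Sstr4 6.92 ± 1.47 and 6.63 ± 0.459. Their log2 differences lay between −0.06 and 0.05, with SE of 0.07 to 0.18, and the lowest unadjusted p was 0.393. Sstr5 and the ghrelin receptor Ghsr were below the filter, with at most 0.190 and 0.230 RPKM in the 8 libraries. Per length, Sst was the most abundant of these genes and among the receptors Sstr2 had the highest mean in both genotypes and Sstr3 the lowest. Every Sstr2 value (6.69 to 9.10 RPKM) was above every Sstr3 value (5.05 to 5.94 RPKM), and Sstr1 and Sstr4 overlapped both of them.

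The wider reaction to the lesion was followed with 35 gene lists of 528 genes, of which 437 passed the filter. Cort was the only list member called. At an unadjusted p under 0.05, 11 members (2.52%, background 1.1%) were higher and 6 (1.37%, background 1.21%) lower in Cort-/- mice. The lists were chosen with earlier results of these data known, so an excess over the background is not independent evidence. In 2 members (0.458%) the genotypes did not overlap with Cort-/- higher, and in 3 (0.686%), Cort among them, with Cort-/- lower, both below the shares over all genes (0.881% and 1.41%). The medians were above 0 for 22 lists and below 0 for 13, against 45.3% of all genes higher in Cort-/- mice. Genes of a list vary together between libraries, so their shared direction is not evidence from separate measurements.

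**Figure D3:**
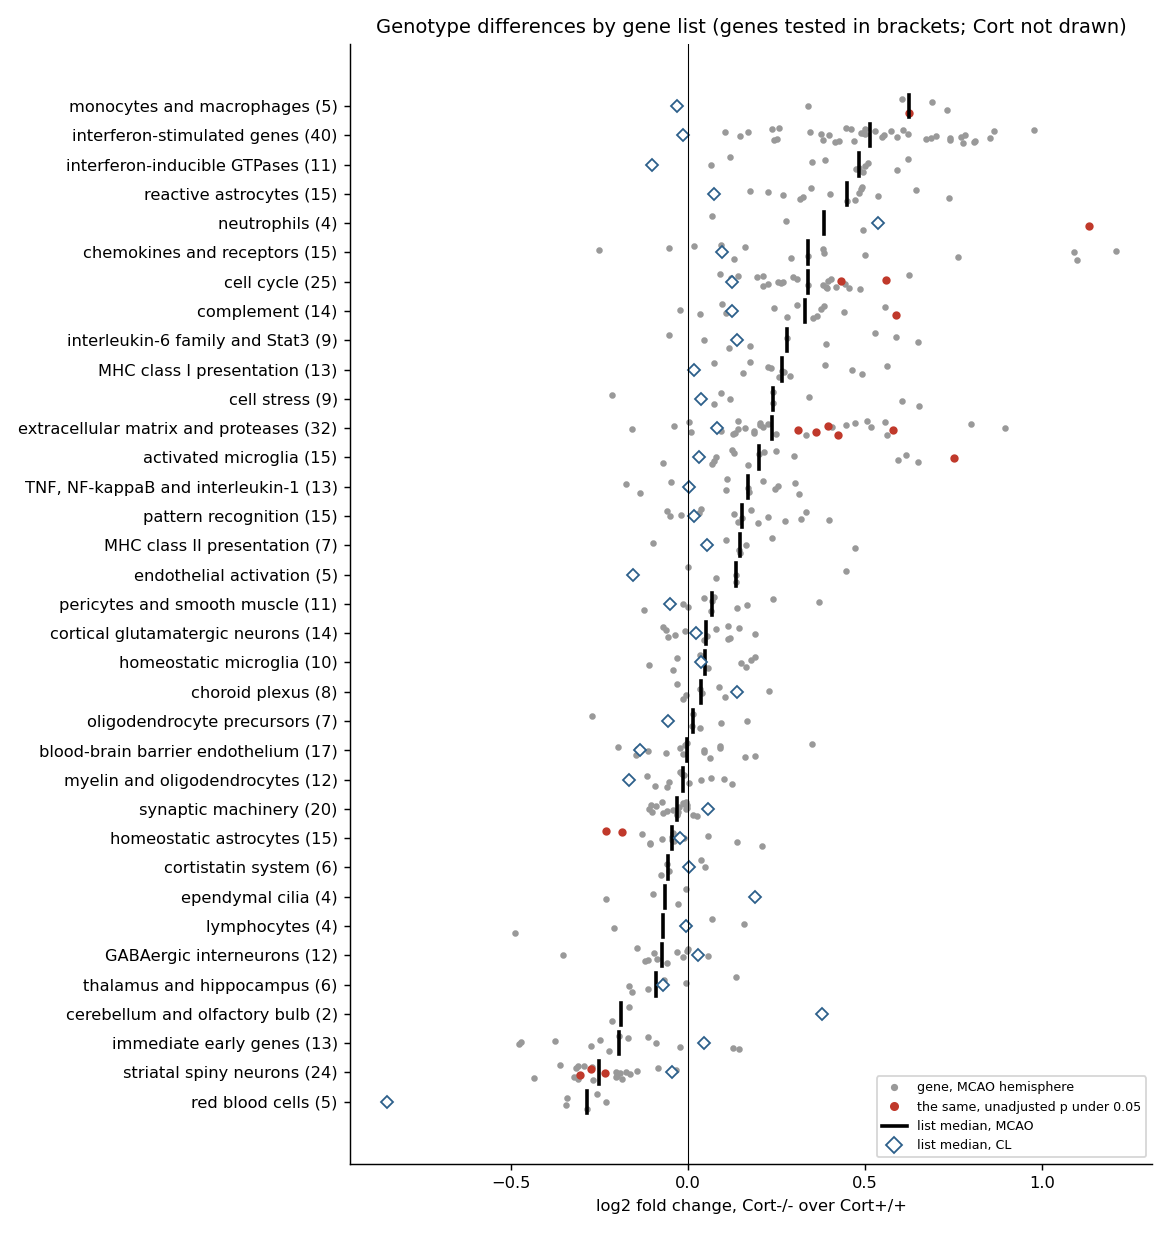
Log2 fold change (Cort-/- over Cort+/+, RPKM + 0.1) of each tested member of the 35 gene lists in the MCAO hemisphere (Cort not drawn), with the list median in MCAO (black bar) and in CL hemispheres (open diamond); red points have an unadjusted p under 0.05. The medians of the interferon lists (0.51 and 0.48) and of the reactive astrocyte list (0.45) lie among the highest in MCAO and near 0 in CL, and all 24 genes of striatal spiny neurons lie below 0. In each of these lists, 0 members had an unadjusted limma p under 0.05 for the difference between hemispheres.

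Interferon-stimulated genes encode antiviral effectors and sensors that type I and type II interferons switch on. All 40 tested members had a higher fitted value in Cort-/- MCAO hemispheres, with a median log2 difference of 0.51, and none had a p under 0.05, the lowest being 0.105. In the CL hemispheres 19 of 40 were higher and the median was −0.02. For the difference between hemispheres, 0 of the 40 had an unadjusted limma p under 0.05 (1.56% of all genes). Ifit3, which binds foreign RNA together with other Ifit proteins, had 30.1, 16.5, 8.91, 28.2 and 32.6 RPKM in Cort-/- and 10.3, 30.5 and 5.41 RPKM in Cort+/+ MCAO hemispheres. Cort-/- replicate 3 thus lay below Cort+/+ replicates 2 and 3, and Cort+/+ replicate 3 was as high as the highest Cort-/- libraries. Dhx58, a helicase that tunes RNA sensing, followed with 2.82, 1.85, 1.05, 2.74 and 2.74 RPKM against 1.16, 2.67 and 0.750 RPKM (log2 difference 0.62 ± 0.36 SE, limma unadjusted p = 0.105). Ifi207 and Ifit2 had log2 differences of 0.98 and 0.41 (unadjusted p = 0.135 and 0.148).

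Promoters are shown because the list shared one direction. A type of interferon response element, GAAA repeated after a gap of 2 bases (on the other strand TTTC, likewise), was searched in windows of 250 bases before to 50 bases after the gene start from RefSeq (GRCm38.p6, a different build from that of the expression files). It was found in 14 of the 28 tested interferon-stimulated genes with an entry (50%), in 3.49% of the 11184 tested genes with an entry and in 3.44% of all 32851 promoters. These shares describe which genes the list holds. The genotype differences did not enter them, so they are no support for a difference between the genotypes. Of the genes named above, Ifi207 and Ifit3 had matches, Ifit2 had 0 matches in its entries and Dhx58 had no entry. Only promoters with a match are printed, so they do not represent the list. Matches are in capitals. That of Ifi207 is from chr1:173741816-173741875 on the minus strand, that of Ifit3 from chr19:34583348-34583441 on the plus strand, and that of Isg15, chosen outside the rule for named genes, from chr4:156200850-156200921 on the minus strand with overlapping matches. Isg15 lies 7.07 Mb from Cort.
Ifi207: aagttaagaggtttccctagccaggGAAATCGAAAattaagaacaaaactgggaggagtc
Ifit3: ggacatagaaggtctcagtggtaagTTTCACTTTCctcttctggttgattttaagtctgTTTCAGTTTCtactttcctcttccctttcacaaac
Isg15: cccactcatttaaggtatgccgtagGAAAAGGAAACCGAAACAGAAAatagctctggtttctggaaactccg
A match is a description of these letters, and no factor binding was measured. Isg15, a ubiquitin-like modifier, had a log2 difference of 0.81 ± 0.70 SE in MCAO hemispheres (limma unadjusted p = 0.27).

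The interferon-inducible GTPases, which attack intracellular pathogens, had the same pattern, with 11 of 11 higher and a median of 0.48 (−0.10 in CL). Gbp5 had 0.991 to 1.90 RPKM in Cort-/- and 0.698 to 1.59 RPKM in Cort+/+ libraries (unadjusted p = 0.104). For MHC class I presentation 13 of 13 genes were higher with a median of 0.27, and for MHC class II 6 of 7 with a median of 0.15. B2m, the light chain of MHC class I, had 138, 90.1, 77.8, 114 and 122 RPKM against 83.4, 124 and 66.3 RPKM. None of these genes had a p under 0.05, and the genotypes overlapped in each of those named.

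Among secreted immune mediators, 13 of 14 complement genes and 13 of 15 chemokine genes had higher fitted values in Cort-/- MCAO hemispheres, with medians of 0.33 and 0.34. C1ra encodes a protease of the complement component that recognises antibody. Its log2 difference was 0.59 ± 0.27 SE (limma unadjusted p = 0.046), and no other member of these lists had a p under 0.05. It had 1.80, 1.51, 0.927, 2.03 and 1.61 RPKM in Cort-/- and 0.858, 1.47 and 0.748 RPKM in Cort+/+ libraries. Cxcl10, a chemokine for T cells, had the largest difference among the chemokines named (1.21 ± 0.66 SE, limma unadjusted p = 0.0898), from 1.32 to 6.36 RPKM in Cort-/- and from 0.744 to 4.75 RPKM in Cort+/+ libraries. Ccl2 and Ccl12, which draw monocytes, had log2 differences of 1.10 and 1.09 with SE of 0.76 and 0.70. The interleukin-6 family and its downstream factors had 8 of 9 members higher (median 0.28), the TNF, NF-kappaB and interleukin-1 list 9 of 13 (0.17), and pattern recognition receptors 12 of 15 (0.15), with no member past the unadjusted threshold.

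Genes of activated microglia were higher in 14 of 15 cases (median 0.20), and those of homeostatic microglia in 7 of 10 (median 0.05). Gpnmb, a glycoprotein of lipid-laden phagocytes, had 5.12, 2.56, 2.74, 3.56 and 3.61 RPKM in Cort-/- and 2.24, 3.52 and 0.973 RPKM in Cort+/+ MCAO hemispheres (log2 difference 0.75 ± 0.32 SE, limma unadjusted p = 0.036). Csf1r, the receptor that keeps microglia alive, had 25.4 to 36.1 and 22.3 to 31.8 RPKM (0.18 ± 0.13 SE).

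Markers of blood-borne and border cells were low. Of 12 monocyte and macrophage markers 5 were tested, all higher in Cort-/- mice with a median of 0.62, and their summed level over the 12 was 6.76 to 19.7 RPKM in Cort-/- and 3.87 to 13.8 RPKM in Cort+/+ libraries. Mrc1, a marker of border macrophages, had 1.77, 1.02, 0.965, 1.19 and 0.728 RPKM against 0.631, 0.748 and 0.643 RPKM (unadjusted p = 0.0339). Of 10 neutrophil markers 4 were tested and all 4 were higher (median 0.38, and 0.54 in CL). S100a9, an abundant neutrophil calcium-binding protein, had 4.18, 3.84, 2.61, 8.26 and 1.85 RPKM in Cort-/- and 0.799, 1.92 and 2.66 RPKM in Cort+/+ MCAO hemispheres (log2 difference 1.13 ± 0.45 SE, unadjusted p = 0.0265). Ly6g, which defines neutrophils, reached at most 0.051 RPKM. The summed neutrophil level was 7.81 to 20.2 and 6.51 to 8.63 RPKM, that of the 17 lymphocyte markers 11.5 to 17.1 and 12.0 to 15.7 RPKM, and the T cell markers Cd3d, Cd3e and Cd3g stayed below 0.1 RPKM. No marker of these lists was at 0 in all 8 libraries.

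Reactive astrocyte genes were higher in 15 of 15 cases in Cort-/- MCAO hemispheres, with a median of 0.45 (0.07 in CL), and none had a p under 0.05. Cd44, a hyaluronan receptor, had 4.48, 2.89, 2.06, 5.14 and 3.90 RPKM in Cort-/- and 2.48, 3.42 and 1.61 RPKM in Cort+/+ hemispheres (log2 difference 0.54 ± 0.28 SE, limma unadjusted p = 0.0799). The highest value was in Cort-/- replicate 4 and the lowest in Cort+/+ replicate 4. Emp1 and Nes followed, with 0.64 ± 0.35 SE and 0.31 ± 0.18 SE.

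Homeostatic astrocyte genes went the other way in small steps, 12 of 15 being lower in Cort-/- mice with a median of −0.04. Aldoc, a glycolytic enzyme of astrocytes, had 286, 290, 278, 258 and 286 RPKM in Cort-/- and 322, 309 and 323 RPKM in Cort+/+ MCAO hemispheres, with no overlap (log2 difference −0.19 ± 0.07 SE, limma unadjusted p = 0.0205). Ndrg2 had 276, 305, 314, 260 and 301 RPKM against 367, 291 and 372 RPKM (−0.23 ± 0.08 SE, unadjusted p = 0.0161). When values were rescaled to TPM, which moved the median of all genes from −0.01 to 0.05, the median of this list turned to 0.01, with 9 of 15 members higher.

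Cell cycle genes were higher in 25 of 25 cases (median 0.34, and 0.12 in CL). Tpx2, a spindle assembly factor, had 2.06, 1.58, 1.27, 1.79 and 1.99 RPKM in Cort-/- and 1.45, 1.48 and 0.895 RPKM in Cort+/+ MCAO hemispheres (log2 difference 0.43 ± 0.18 SE, limma unadjusted p = 0.0333). Pbk, a mitotic kinase, had a difference of 0.56 ± 0.25 SE (unadjusted p = 0.0431). Both overlapped between the genotypes.

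The extracellular matrix and protease list held the most members past the unadjusted threshold, 5 of 32, all higher, against a background of 1.1%. This list too was chosen with earlier results of these data known, so the excess is not independent evidence. In all, 30 of the 32 were higher with a median of 0.24 (0.08 in CL). Col6a2, a chain of collagen VI, had 4.23, 4.497, 3.77, 4.88 and 3.82 RPKM in Cort-/- and 2.67, 3.57 and 3.65 RPKM in Cort+/+ MCAO hemispheres and did not overlap (log2 difference 0.36 ± 0.12 SE, limma unadjusted p = 0.012). Its CL difference was 0.33. Col1a1, the main chain of collagen I, had 2.09 to 4.03 and 1.92 to 2.18 RPKM (0.42 ± 0.18 SE, unadjusted p = 0.0381). Bgn, a small matrix proteoglycan, and Tnc, a glycoprotein of healing tissue, had differences of 0.39 ± 0.16 SE and 0.58 ± 0.25 SE, and both overlapped.

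Genes of striatal spiny neurons, the projection neurons in the centre of the MCA territory, were lower in Cort-/- MCAO hemispheres in 24 of 24 cases, with a median of −0.25 (−0.05 in CL). The list was chosen with earlier results of these data known. Several members, among them Drd1, Gng7 and Rgs9, are listed in the paper as lowered by ischemia in both genotypes and more so in Cort-/- mice. Their direction here is therefore not separate support. Tac1, the precursor of substance P, had 17.9, 19.2, 23.9, 16.6 and 22.9 RPKM in Cort-/- and 23.3, 21.8 and 29.4 RPKM in Cort+/+ libraries (log2 difference −0.31 ± 0.12 SE, limma unadjusted p = 0.0245). Rarb, a retinoic acid receptor, and Gng7, a G protein subunit of dopamine signalling, had −0.27 ± 0.12 SE and −0.24 ± 0.10 SE (unadjusted p = 0.0342 and 0.0405). The dopamine receptor Drd1 had 5.92, 7.04, 7.64, 6.19 and 7.96 RPKM against 8.19, 6.88 and 10.3 RPKM. In each of these genes Cort+/+ replicate 4 was the highest library and Cort+/+ replicate 3 lay within the range of the Cort-/- libraries.

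The other neuronal lists moved less. Markers of cortical glutamatergic neurons had a median of 0.05, those of GABAergic interneurons −0.07 with 11 of 12 lower, and synaptic genes −0.03 with 18 of 20 lower, and no member had a p under 0.05. Gad2, an enzyme of GABA synthesis, had 38.8 to 51.8 RPKM in Cort-/- and 47.1 to 52.8 RPKM in Cort+/+ libraries. Immediate early genes were lower in 11 of 13 cases with a median of −0.20, led by Npas4 (−0.38 ± 0.31 SE), and 8 of 9 genes of cell stress were higher (median 0.24), with Hmox1, the haem-degrading enzyme, at 0.60 ± 0.38 SE.

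Vascular and oligodendrocyte genes had small medians in the MCAO hemispheres. The blood-brain barrier endothelium list had a median of −0.004 with 8 of 17 higher, pericytes and smooth muscle 0.07, endothelial activation 0.13, myelin −0.01 and oligodendrocyte precursors 0.01, and no member had a p under 0.05. In CL hemispheres the same medians were −0.14 (3 of 17 higher), −0.05, −0.16, −0.17 (0 of 12 higher) and −0.06. For the difference between hemispheres, 3 of the 17 barrier genes had an unadjusted limma p under 0.05 (1.56% of all genes). None passed after adjustment. In MCAO hemispheres the nearest to the threshold were Olig2, a transcription factor of the oligodendrocyte lineage (0.17 ± 0.08 SE, limma unadjusted p = 0.0513), and Tagln, a smooth muscle protein (0.37 ± 0.17 SE, unadjusted p = 0.0515). Lists for neighbouring tissue had medians of 0.04 for choroid plexus, −0.06 for ependymal cilia, −0.09 for thalamus and hippocampus and −0.19 for the 2 tested markers of olfactory bulb. Whether these values reflect how the hemispheres were cut was not tested. The summed markers of cerebellum and olfactory bulb ranged from 4.86 to 17.03 RPKM in Cort-/- libraries, lowest in replicate 4 and highest in replicate 3, and from 8.36 to 12.2 RPKM in Cort+/+ libraries; their part in the list differences was not tested.

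The size of these list differences depended on single libraries. As a list score, the mean log2(RPKM + 0.1) of the members relative to their mean over the 8 libraries, the interferon-stimulated genes had 0.72, −0.05, −0.92, 0.54 and 0.70 in the Cort-/- and −0.54, 0.72 and −1.18 in the Cort+/+ MCAO libraries. Cort+/+ replicate 3 was thus level with the highest Cort-/- libraries, and Cort-/- replicate 3 was lower than 2 of the 3 Cort+/+ libraries. The order was much the same for complement, chemokine, reactive astrocyte and cell cycle genes. It was partly reversed for genes of spiny neurons, highest in Cort+/+ replicate 4 (0.50) and lowest in Cort-/- replicate 1 (−0.42). Cort-/- replicate 5 was above 0 for both interferon-stimulated (0.70) and spiny neuron genes (0.11). Haemoglobin and other red blood cell genes summed to 257 RPKM in Cort+/+ replicate 4, against 87.4 to 186 RPKM in the Cort-/- and 97.0 and 135 RPKM in the other Cort+/+ libraries; their part in the list differences was not tested. The share of reads on mitochondrial genes was 3.77%, 3.15%, 3.73%, 3.69% and 4.01% in the Cort-/- and 4.29%, 3.97% and 4.43% in the Cort+/+ MCAO libraries, lower in most Cort-/- libraries and highest in Cort+/+ replicate 4; its part in the list differences was not tested. Besides the cortistatin system, which holds Cort itself, no list had scores that separated the genotypes.

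**Figure D4:**
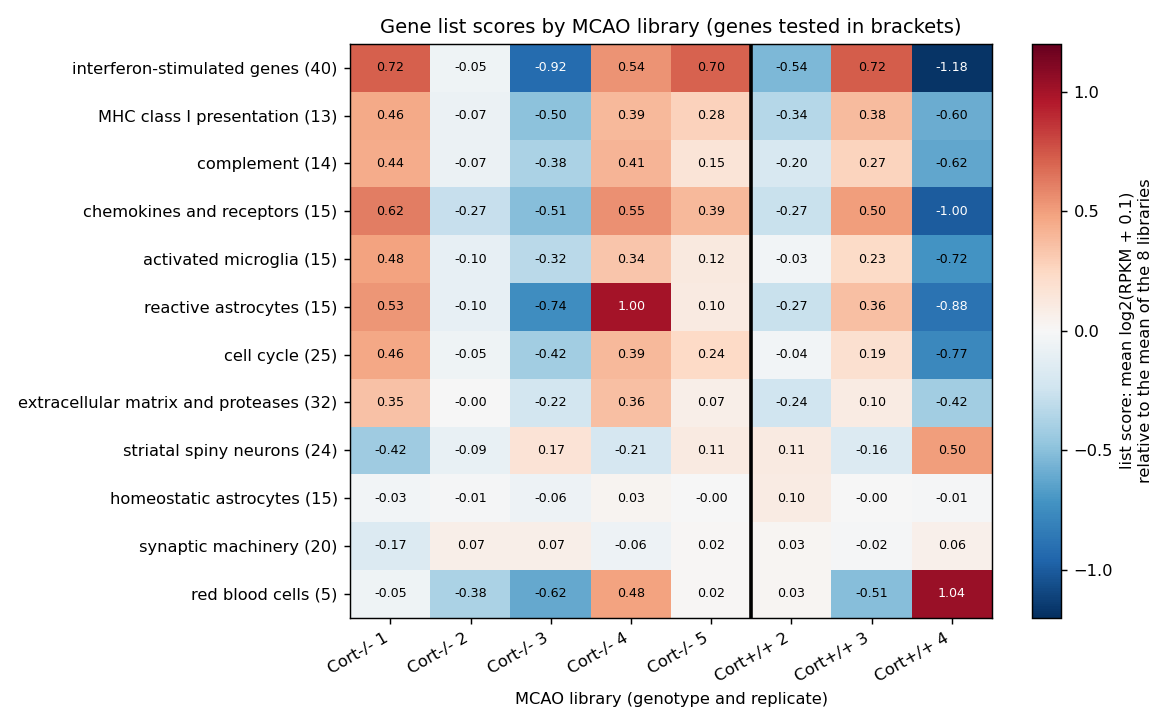
List scores (mean log2(RPKM + 0.1) relative to the mean of the 8 MCAO libraries) of 12 gene lists in each MCAO library, Cort-/- left and Cort+/+ right of the line. Cort+/+ replicate 4 has the lowest score of the 8 in the interferon-stimulated, reactive astrocyte and cell cycle lists (−1.18, −0.88 and −0.77), Cort+/+ replicate 3 sits with the high Cort-/- libraries, and Cort-/- replicate 3 sits with the low ones.

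Without Cort+/+ replicate 4, the median of the interferon-stimulated genes was 0.12 with 34 of 40 higher, that of reactive astrocytes 0.14 and that of cell cycle genes 0.04. Without Cort+/+ replicate 3 it was 1.05 for the interferon-stimulated genes, 33 of which then had an unadjusted p under 0.05, and without Cort-/- replicate 3 it was 0.79, with 17 such genes. The median of the spiny neuron list ranged from −0.38 to −0.08 over the same fits and that of the extracellular matrix list from 0.16 to 0.35. That of complement stayed above 0 (0.04 to 0.59). Other medians crossed 0, among them those of chemokines (−0.02 to 0.68) and activated microglia (−0.03 to 0.36). Those of cell stress (−0.05 to 0.39) and pattern recognition (−0.06 to 0.33) did so too. Of the 437 list members, 11 had an unadjusted p under 0.05 with higher values in Cort-/- mice in the fit of all libraries, 91 without Cort+/+ replicate 3, 60 without Cort-/- replicate 3, 2 without Cort-/- replicate 1, 4 without Cort-/- replicate 4 and 3 without Cort+/+ replicate 4. The same counts over all 17476 genes moved too. They were 192 in the fit of all libraries, 515 without Cort+/+ replicate 3 and 434 without Cort-/- replicate 3. Without Cort-/- replicate 1, Cort-/- replicate 4 and Cort+/+ replicate 4 they were 176, 136 and 144. In the extracellular matrix list the 5 such members became 13 without Cort-/- replicate 3 and 11 without Cort+/+ replicate 3, and 3 without Cort-/- replicate 4. It was 1 without Cort-/- replicate 1, Cort+/+ replicate 2 or Cort+/+ replicate 4.

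**Figure D5:**
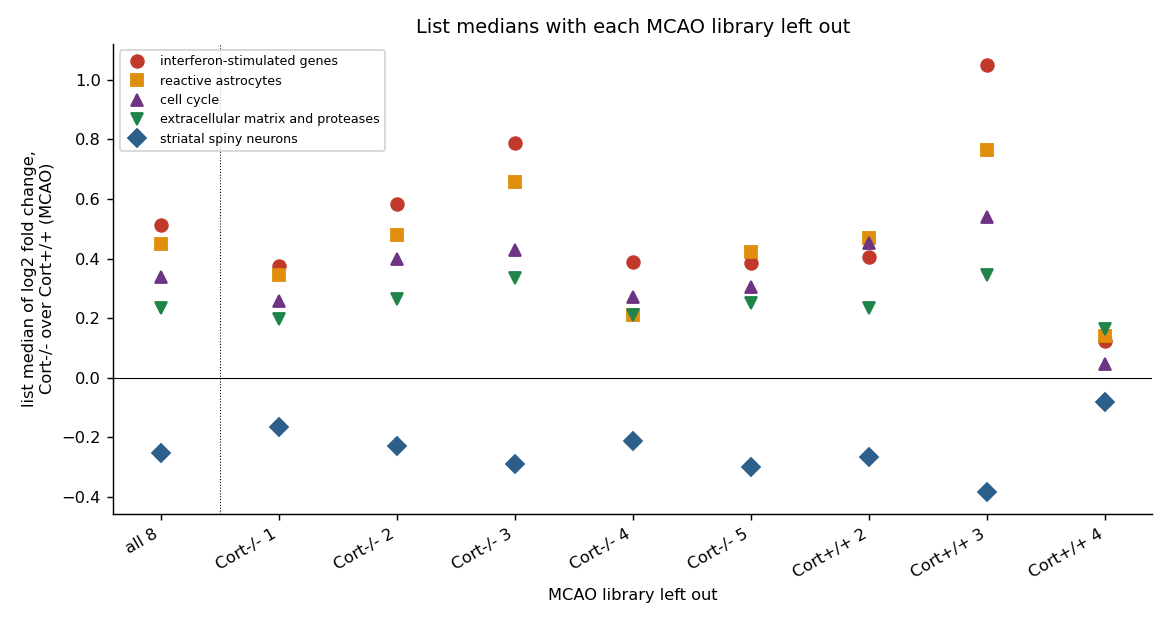
Median log2 fold change (Cort-/- over Cort+/+, MCAO hemispheres) of 5 gene lists with all 8 MCAO libraries and with each MCAO library left out in turn. The medians of these 5 lists keep their sign in each fit, unlike those of some lists not drawn. They range from 0.12 to 1.05 for interferon-stimulated genes, lowest without Cort+/+ replicate 4 and highest without Cort+/+ replicate 3.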

How the data were processed

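RNA from ischemic and contralateral hemispheres was sequenced (stranded mRNA libraries, paired-end reads). According to the methods and processing notes, the authors aligned reads to GRCm39 with reanalyzerGSE and GENCODE annotation, and they deposited RPKM values of each library without pooling. RPKM values came back as whole reads for 100% of 495656 values above 0 (tolerance 1e-04 reads), which gave the read numbers and depths. Gene positions are those of GENCODE M39 (46603 of 46904 names matched). Intervals and floors cover counting error only.

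Genes averaging 0.5 RPKM or more over the 14 libraries were kept. limma 3.58.1 was run on log2(RPKM + 0.1) (R 4.3.3; one model of the 4 groups, variances with trend), since RPKM values are not counts. p-values were adjusted by Benjamini-Hochberg over all genes, with a threshold of 0.05. Unadjusted p-values are limma's. The fit and the recovery of reads were tested on simulated data. Tables and figures were made in Python 3.11.15 with pandas 2.3.3, numpy 2.4.6, scipy 1.17.1 and matplotlib 3.10.9.

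The members and gene lists were chosen with earlier results of these data known. Named are Cort, genes called in either hemisphere, the cortistatin system, up to 4 members of lowest p per list, and the 10 largest changes in each direction among genes of at least 1 RPKM in the higher genotype with an unadjusted p under 0.05 and no overlap. The genes of lowest p and the motif were chosen after values were seen. Other pseudocounts, filters, scalings, weights, a block by replicate number, voom on recovered reads and leaving out each library were alternatives. Whether both hemispheres came from the same animals is not given in the sources used here. Replicate numbers were not treated as pairs, since no source says that they mark one and in the groups compared 1 of 3 correlations was above 0.1. Some of the genes the rule names are not reported here.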

Additional observations from a re-analysis of the deposited data

Results flagged for a closer look

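In groups of 5, a sample counts as standing apart when its gap to the nearest of the others is more than 0.71 of the whole range (Dixon's limit). Gaps and ranges were taken on log2(RPKM + 0.1) for genes and on the score for lists. Among 206 values examined in the Cort-/- MCAO libraries (171 named genes and 35 list scores), 7 were past it, and chance alone flags about 1 in 20. Expression in RPKM of the sample that stood apart was 4.38 for Gm43305 in replicate 2 (others 5.94 to 6.54), 6.77 for Crhbp in replicate 1 (7.81 to 8.28) and 4.97 for Ecel1 in replicate 4 (8.77 to 9.54). In replicate 3 it was 2.86 for Ier2 (4.21 to 4.88), 3.32 for Prkch (2.88 to 2.98) and 10.9 for Gm43580 (7.90 to 8.67). The list score of blood-brain barrier endothelium was 0.245 in replicate 4 and between −0.09 and 0.004 in the others. Cort-/- replicate 3 had 3 of these values and replicate 4 had 2. The cause was not tested.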

How the results depend on the processing

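The number of genes that differed in the MCAO hemispheres (4) was 8 with no filter beyond values above 0 in at least 2 libraries (46102 genes tested), 7 with array weights and 2 with only the MCAO groups in the model. Without the filter the count was 7 for the CL hemispheres and 1 for the difference between hemispheres (4 and 0 with it). Leaving out 1 library at a time gave 3 to 5 genes in MCAO, 3 to 6 in CL and 0 to 0 for the difference, a log2 difference of −5.03 to −4.72 for Cort, and medians of 0.12 to 1.05 for interferon-stimulated genes, 0.04 to 0.54 for cell cycle genes and −0.38 to −0.08 for striatal spiny neurons.

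With the replicate number as a block (replicate block), 2 genes passed in MCAO hemispheres, Cort and Gm49980, and the adjusted p was 0.0942 for Fbxo44 and 0.427 for Gm43305. Deviations of same-numbered Cort-/- and Cort+/+ MCAO libraries correlated at 0.113, −0.293 and −0.08, which does not show pairing in this comparison. Between Cort-/- MCAO and Cort+/+ CL libraries, which were not compared with each other, they correlated at 0.141, 0.128 and 0.170, and over the other pairs of groups from −0.281 to 0.238.

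Rescaling to TPM moved the median of all genes to 0.05 and the split of unadjusted calls from 192 higher and 212 lower to 619 higher and 68 lower. Of 4400 values of 170 named genes over 26 alternatives, 16 lost the call (14 for Gm43305 and 2 for Fbxo44), 11 gained one, and 43 had the other sign, none of them called. Of 910 list medians, 5 moved by more than the spread between Cort-/- libraries and 33 had the other sign. The cause was not tested. Low read numbers limit short RNAs and genes near 0.5 RPKM, and 3 Cort+/+ libraries limit the spread estimate.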
